A study of Mus musculus with 6 samples.

Results

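Ltf-high cells without Mki67 and Top2a transcripts were described in c-Kit-enriched mouse bone marrow by single-cell RNA sequencing (10x, counts of unique molecular identifiers, UMIs). They were chosen by their measured RNA. A member had at least 20 Ltf UMIs per 10000 UMIs of the cell, 0 UMIs of Mki67 plus Top2a, at most 1 Il1b UMI and ln(1 + Ms4a3 UMIs per 10000) of at most 3. Of 32762 cells with 500 to 7500 detected genes and at most 15% mitochondrial UMIs, 1528 (4.66%) were members, with 546, 514 and 468 in pools 1, 2 and 3. The levels of those 5 genes are therefore a description and not a finding.

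Each of the 3 pools held marrow of 3 BALB/c mice of 10 weeks, each carrying its own hashtag antibody. One was a non-tumor-bearing mouse with no treatment (NTB), one bore the mammary tumor line 4T1 and received vehicle (DPBS) daily by intraperitoneal injection for 2 weeks (Veh), and one bore 4T1 and received brequinar (BRQ, an inhibitor of the pyrimidine synthesis enzyme DHODH) at 10 mg/kg on the same schedule. Tumors sat orthotopically in the mammary gland of syngeneic females, and injections began when tumors could first be measured. All groups share the selection for c-Kit, so the members are what that selection passed on, not the neutrophils of whole marrow. BRQ was given to tumor-bearing mice alone, so no group shows BRQ without a tumor. The hashtag barcodes that assign a cell to its mouse are printed because every group value below rests on them.
NTB, hashtag B0301: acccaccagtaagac
Veh, hashtag B0302: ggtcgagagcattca
BRQ, hashtag B0303: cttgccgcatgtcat

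Neutrophils arise in the marrow from granulocyte-monocyte progenitors through promyelocytes, which make the primary (azurophil) granule proteins, and myelocytes and metamyelocytes, which make the secondary (specific) granule proteins such as lactoferrin (Ltf), lipocalin 2 (Lcn2), cathelicidin (Camp) and neutrophilic granule protein (Ngp). Tertiary granule proteins such as Mmp9 and surface receptors such as Cxcr2 come last. Cell division stops between the myelocyte and the metamyelocyte, so a cell with abundant Ltf and no Mki67 or Top2a is read as an immature neutrophil past its last division. Such cells are also counted among the CD11b+ Gr-1+ cells from which granulocytic myeloid-derived suppressor cells (MDSCs) are drawn in tumor-bearing mice.

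The label was checked against its markers. Of all members, 99.5% had a UMI of Lcn2, 95.4% of Ly6g (the antigen of Gr-1 antibodies), 56.7% of Mmp8 (neutrophil collagenase) and 30.8% of Olfm4 (olfactomedin 4, a secondary granule protein). Levels, summed over all members and given as UMIs per 10000 UMIs, were 116 for Ltf, 131 for Lcn2, 22.96 for Ly6g, 14.2 for Mmp8 and 12.5 for Olfm4, whose median per cell was 0. Olfm4 therefore marks a minority of the members. S100a9 and S100a8, the 2 chains of calprotectin, took 17.0% and 12.3% of all UMIs, Camp 3.88% and Ngp 3.79%. The gene behind the enrichment, Kit, was found in 4.32% of members (0.128 UMIs per 10000).

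Other Ltf-high cells show where the rule cuts. Of 5617 Ltf-high cells, 4069 (72.4%) were left out for at least 1 UMI of Mki67 or Top2a, 51 for Il1b and 47 for Ms4a3, where a cell can fail several limits. In the cycling Ltf-high cells Camp was at 466 and Ngp at 352 UMIs per 10000, against 388 and 379 in members. Late genes were lower there, with Mmp8 at 0.711 against 14.2, Mmp9 at 1.43 against 15.6 and Retnlg at 4.24 against 56.4. Other division genes were not absent from members. A list of S phase genes had a UMI in 70.7% of members and 96.7% of the cycling cells, and a list of G2M genes in 99.4% and 100%. In pools 1, 2 and 3 the S phase list stood at 5.88, 5.59 and 7.37 UMIs per 10000 in members, against 22.7, 23.0 and 23.8. The 452 cells left out by a single Mki67 or Top2a UMI had Camp at 422.5, Mmp8 at 4.76 and Retnlg at 21.3 UMIs per 10000. The 32 members with Ltf between 20 and 25 per 10000 had Camp at 135.6 and Retnlg at 179.4, and the 45 cells just outside, between 15 and 20, had 151.6 and 153.9. The Il1b limit parted 23 members with 1 Il1b UMI (Retnlg at 150.01) from 3 cells with 2 (Retnlg at 166.9), and the Ms4a3 limit parted 64 members with ln values of 2 to 3 (Camp at 341.3) from 10 cells at 3 to 4 (Camp at 82.4). Members were shallow, with a median of 3868.5 UMIs and 1205 genes against 9464 UMIs and 2688 genes over all cells, and a shallow cell can show 0 UMIs of Mki67 and Top2a by sampling alone. Intervals and counting limits here cover counting error only.

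Hashtags placed fewer members than other cells. A mouse is named by its group and pool, as in Veh pool 2. HTODemux called 511 members (33.4%) as singlets of 1 mouse, against 48.7% of all cells, and left 60.5% without a tag, against 40.2%. In pool order, 15, 93 and 193 singlet members came from NTB, 35, 6 and 18 from Veh and 60, 53 and 38 from BRQ mice. Median mitochondrial shares were highest in the members of Veh pool 2 (4.53%) and NTB pool 1 (3.09%), against 0.767% to 1.37% in the other 7 mice. Veh pool 2, with 6 members, was left out of the fits below, which hold 8 mice with 62701 to 721541 UMIs each. Scrublet marked 17 members (1.11%) as likely doublets. The pools shared 43, 48 and 38 cell barcodes in pairs, none of them in members.

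The first property the rule did not use is the range from a Camp-rich to a Retnlg-rich state. Retnlg encodes a resistin-like protein of neutrophils. It ranged from 0 in 454 members to over 150 UMIs per 10000 in 244, with a median of 9.88. Across cells within a pool, Spearman's rho of Camp with Retnlg was -0.689, -0.714 and -0.655 in pools 1, 2 and 3 (546, 514 and 468 cells), that of Retnlg with Mmp8 was 0.754, 0.760 and 0.723, and that of Camp with Ngp was 0.615, 0.668 and 0.703. These are descriptions over cells that share a library, and Retnlg and the number of UMIs of a cell had rho between -0.178 and -0.0789. Depth was tied more closely to Camp (0.298, 0.227 and 0.334) and to Mmp8 (-0.332, -0.261 and -0.224).

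Camp, Ngp and other early transcripts were higher in members with 0 Retnlg. Camp, an antimicrobial peptide precursor, stood at 529 (pools 454 to 579) UMIs per 10000 there and at 141 (pools 118 to 167) in members with Retnlg over 150. Ngp stood at 462 (pools 449 to 485) and 212 (pools 206 to 216), and Chil3, a chitinase-like protein of early neutrophils, at 21.6 (pools 19.3 to 22.96) and 2.21 (pools 1.24 to 3.70). Fcnb (ficolin B) went from 5.81 (pools 5.42 to 6.19) to 0.154 (pools 0.0865 to 0.240). In each of these 4 genes the pools of one class did not overlap those of the other. Ltf, the gene that selected the cells, changed less, from 112 to 81.2, as did Lcn2, from 132 to 106. S100a8 stood at 1213 and 1224 UMIs per 10000.

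Late neutrophil transcripts ran the other way. Mmp8 stood at 1.93 (pools 1.69 to 2.28) UMIs per 10000 in members with 0 Retnlg and at 39.3 (pools 37.4 to 42.3) in those over 150. Mmp9 (gelatinase B, a tertiary granule enzyme) stood at 3.86 (pools 3.26 to 4.44) and 37.9 (pools 35.5 to 40.4), and Cxcr2, the receptor for neutrophil-recruiting chemokines, at 0.631 (pools 0.563 to 0.778) and 6.93 (pools 5.81 to 7.71). The calcium-binding protein gene S100a6 went from 10.99 (pools 7.96 to 16.1) to 121 (pools 109.9 to 136). Itgam (CD11b) went from 5.88 to 10.1. Of the transcription factors, Cebpe, which drives secondary granule genes, went from 5.82 (pools 5.46 to 6.08) to 1.66 (pools 1.38 to 2.15), and Cebpd from 2.26 to 3.42. Olfm4 was not ordered along this range, at 12.8, 17.6 and 8.60 in the classes 0, 10 to 50 and over 150.

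Summed lists followed the same range. The 80 ribosomal protein genes took 657 UMIs per 10000 in members with 0 Retnlg and 302 in those over 150. The respiratory chain list went from 118 to 70.8 and the S phase list from 10.2 to 3.26. The list of retention, adhesion and migration genes went from 99.5 to 261, the interferon-stimulated list from 10.6 to 30.02 and the cytokine receptor and JAK-STAT list from 13.6 to 29.3. S100a6, on the first of these 3 lists, alone went from 10.99 to 121. The list of genes linked to MDSCs, dominated by S100a8 and S100a9, stood at 2938 and 3003.

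**Figure D1:**
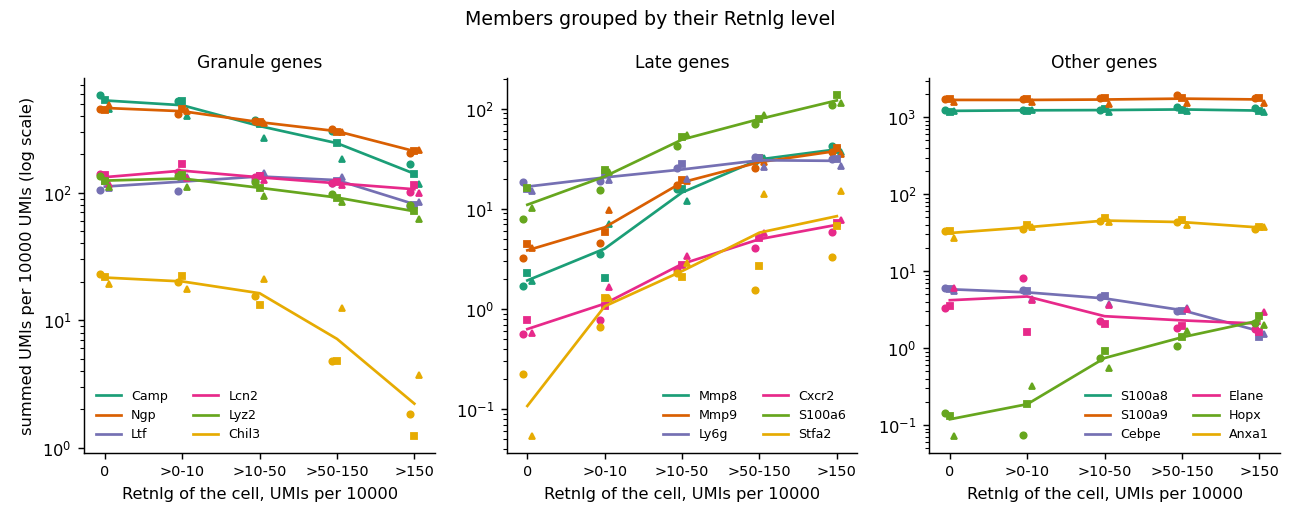
Levels of 18 genes (summed UMIs per 10000 UMIs, log axis) in members grouped by the cell's own Retnlg level (horizontal axis, UMIs per 10000). Lines join the values over all pools and points are the 3 pools (levels of 0 not drawn). Camp and Ngp fall from left to right, Mmp8, Mmp9, Cxcr2 and S100a6 rise, and S100a8 and S100a9 stay near the same level.

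The mice differed in where their members lay on this range. In pool order, the median Retnlg level per member was 1.80, 3.55 and 2.96 UMIs per 10000 for NTB, 42.1, 131.8 and 21.1 for Veh and 76.2, 50.3 and 76.5 for BRQ. All NTB mice lay below all tumor-bearing mice, and Veh and BRQ mice overlapped. The share of members above the median Retnlg of all members was 33.3%, 43.0% and 36.8% in NTB, 65.7%, 66.7% and 55.6% in Veh and 80%, 66.0% and 89.5% in BRQ. The Veh value of 131.8 rests on 6 members. These medians were looked at after the fits and are given with no test.

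**Figure D2:**
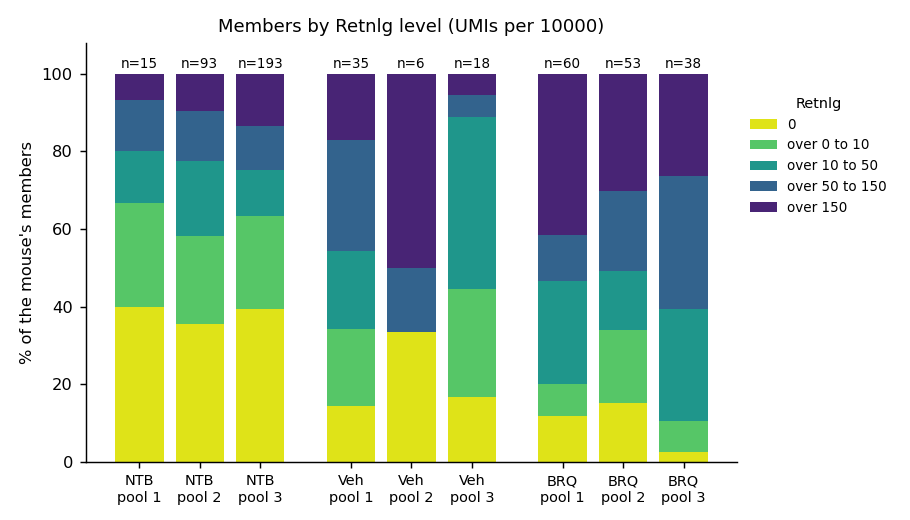
Members of each mouse split by their Retnlg level (UMIs per 10000), as a percentage of that mouse's members (vertical axis), with the number of members above each bar. Members with 0 Retnlg made up 35.5% to 40% of the NTB bars and 2.63% to 15.1% of the BRQ bars.

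How frequent the members were was compared first, since the tumor and BRQ could each alter the share of immature neutrophils in this marrow fraction. Members were 2.71, 7.12 and 7.89% of the singlets of NTB mice, in pool order, 1.26, 1.57 and 1.43% for Veh and 2.33, 2.28 and 1.62% for BRQ. The 95% exact binomial (Clopper-Pearson) interval ran from 1.52% to 4.43% in NTB pool 1 and from 0.579% to 3.39% in Veh pool 2, the mice with the fewest members. The groups did not overlap in any pair, with means of 5.90% ± 2.79, 1.42% ± 0.156 and 2.08% ± 0.397 (SD, n = 3 each). The difference was -4.48 percentage points for Veh minus NTB, 0.661 for BRQ minus Veh and -3.82 for BRQ minus NTB, each with p = 0.1 in the two-sided exact permutation test, the smallest value that 3 against 3 mice can give (0.15 adjusted over the 9 comparisons of 3 measures). Within all 3 pools the Veh and BRQ mice were below the NTB mouse and the BRQ mouse was above the Veh mouse (p = 0.25 in the exact permutation within pools, its smallest value). With hashtags called from tag ratios instead, Veh minus NTB was -3.66 and BRQ minus NTB -4.15 points, but BRQ minus Veh turned to -0.483, so the order of Veh and BRQ depends on the hashtag call. With 500 to 7500 read as UMIs per cell in place of genes, the differences were -9.16 (Veh minus NTB), 2.62 (BRQ minus Veh) and -6.54 (BRQ minus NTB), and NTB and BRQ then overlapped (7.44% in NTB pool 1, 7.77% in BRQ pool 2, p = 0.2, exact permutation test). With Ltf of at least 10 per 10000, Veh and BRQ overlapped (0.522 points, p = 0.2, exact permutation test). All Ltf-high cells, cycling ones included, were 18.1, 28.4 and 35.9% of singlets in NTB, 5.18, 6.54 and 4.52% in Veh and 9.80, 8.14 and 4.82% in BRQ mice. A share among sorted cells moves with every other cell type of the sort, so fewer members and more of other cells cannot be told apart.

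Within the Ltf-high cells, the share of members (cells passing the Mki67 plus Top2a, Il1b and Ms4a3 limits) was compared after each cell was thinned to 2066 UMIs. Depth sets whether these genes are seen. Thinning left out 65 of 1349 Ltf-high singlets in NTB, 16 of 226 in Veh and 14 of 554 in BRQ mice. Members were 16.5, 33.7 and 30.8% of Ltf-high cells in NTB, 42.6, 40 and 42.9% in Veh and 34.7, 37.6 and 44.04% in BRQ mice. The NTB mice lay below both other groups (Veh minus NTB 14.8 points, BRQ minus NTB 11.8 points, each p = 0.1 in the exact permutation test), and Veh and BRQ overlapped (-3.02 points, p = 0.4, exact permutation test). Unthinned, the shares were 15, 25.1 and 21.98%, 24.3, 24 and 31.6% and 23.8, 28.04 and 33.6%, and Veh minus NTB shrank to 5.95 points. Tag ratios moved BRQ minus Veh to -13.3 points, with no overlap (33.3, 26.7 and 32.5% in BRQ, 41.7, 36.4 and 54.2% in Veh, p = 0.1 in the exact permutation test). The share with Mki67 or Top2a alone overlapped under tag ratios (63.2, 62.2 and 62.5% in BRQ, 57.6, 63.6 and 41.7% in Veh). Tag ratios moved BRQ minus NTB to 3.10 points, and with 500 to 7500 read as UMIs Veh minus NTB was 22.2 and BRQ minus NTB 20.1. BRQ minus Veh was 1.87 unthinned. Without NTB pool 1, BRQ minus NTB was 6.53 and Veh minus NTB 9.55. Median UMIs per member were 3593, 3294 and 3511 in NTB, 4394, 2984 and 3110.5 in Veh and 4263, 4459 and 4711 in BRQ mice, higher in every BRQ than in every NTB mouse (1012 UMIs, p = 0.1, exact permutation test). With tag ratios the difference was 310.2 (p = 0.4, exact permutation test) and the groups overlapped, with BRQ pool 3 at 3240.5 below every NTB mouse (3644.5 to 3694).

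**Figure D3:**
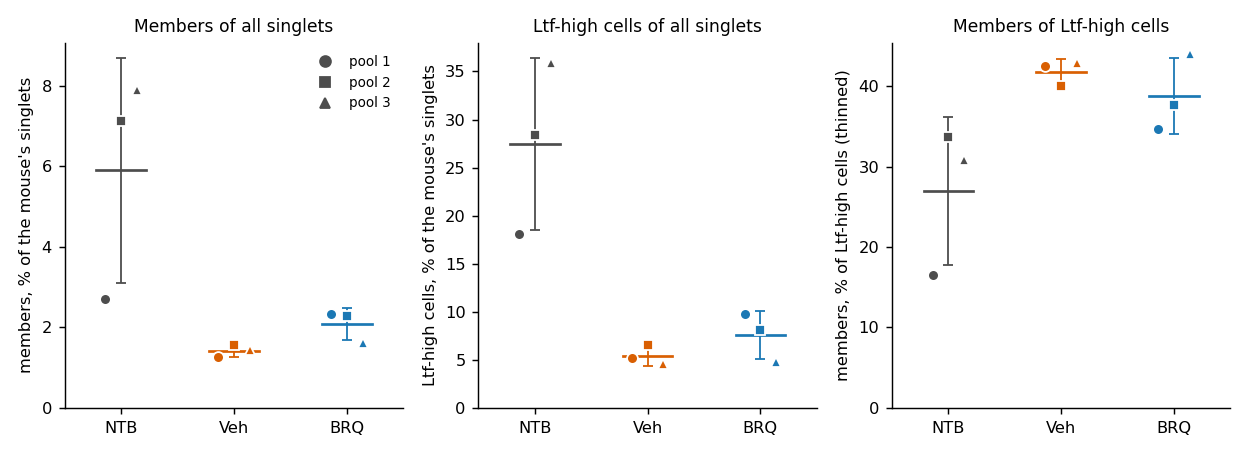
Members and all Ltf-high cells as percentages of each mouse's singlets (left and middle), and members as a percentage of the mouse's Ltf-high cells after thinning to 2066 UMIs (right). Points are mice, marked by pool, and lines and bars give the mean and SD of 3 mice. NTB mice are highest in the left and middle panels and lowest in the right one.

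Expression in members was compared in sums per mouse. With edgeR's quasi-likelihood test, 2799 genes passed the filter on low counts, in 1 fit over 3 NTB, 2 Veh and 3 BRQ mice. Values per mouse are CPM (counts scaled to library size, after TMM scaling), given in pool order (Veh pools 1 and 3), and a gene was called at a Benjamini-Hochberg adjusted p under 0.05 over all tested genes. In Veh against NTB, 58 genes (2.07%) were called, 48 (1.71%) higher and 10 (0.357%) lower. In BRQ against NTB, 127 (4.54%) were called, 97 (3.47%) higher and 30 (1.07%) lower. In BRQ against Veh, 1 gene (0.0357%) was called, higher in BRQ, and 0 (0%) lower. At an unadjusted p under 0.05 there were 374, 506 and 177 genes, and DESeq2 called 26, 37 and 0. Groups without overlap between the mice of the fit were common. They were found in 30.87% of tested genes in Veh against NTB, 22.04% in BRQ against NTB and 26.72% in BRQ against Veh. Lack of overlap, where given below for single genes, is therefore a description. The Veh and BRQ contrasts with NTB share the 3 NTB mice and are given side by side. Fits without Veh pool 1 or without Veh pool 3 hold 1 Veh mouse, as do those with mice of at least 30 members and with members of middle depth (the 25th to 75th percentile of UMIs), which also hold 2 NTB mice. In these the lone Veh mouse is taken to vary like the other mice. Tag ratios leave 2 BRQ mice. In pool order they assign 31, 8 and 12 members to BRQ in place of 60, 53 and 38, and 50, 107 and 120 to NTB in place of 15, 93 and 193. Veh mice had 34, 8 and 17 in place of 35, 6 and 18. Single mice moved these counts. In all, 18 genes were called in Veh against NTB without Veh pool 1 and 32 without NTB pool 3. In BRQ against NTB, 31 were called without NTB pool 3, 70 without NTB pool 2, 83 without BRQ pool 2 and 75 without BRQ pool 3. With hashtags called from tag ratios, 12 genes were called in BRQ against NTB.

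The stefin A genes, inhibitors of cysteine proteases that lie side by side on chromosome 16, rose in both tumor groups against NTB. Of the 7 stefin A genes there, 6 were tested and all 6 were called in both comparisons. Stfa2 (ENSMUSG00000022902, chromosome 16, 36403992 to 36408457, minus strand) was at 0, 70 and 25.5 CPM in the NTB mice, 505 and 226 in Veh and 214, 371 and 1401 in BRQ, a log2 fold change of 3.34 (SE 0.60, adjusted p = 0.000635) for Veh and 4.04 (SE 0.49, adjusted p = 8.2e-07) for BRQ. Every tumor-bearing mouse lay above every NTB mouse. Stfa3 was at 107, 79.5 and 41.99 CPM in NTB, 693 and 598 in Veh and 490.0, 490.1 and 1904 in BRQ, a log2 fold change of 3.42 (SE 0.46, adjusted p = 6.41e-06) and 3.96 (SE 0.40, adjusted p = 1.97e-08). Cstdc5 was at 410.0, 337 and 253 CPM in NTB, 3066 and 679 in Veh and 1318, 1009 and 5757 in BRQ, with 2.65 (SE 0.47, adjusted p = 0.000474) and 3.10 (SE 0.43, adjusted p = 6.66e-06). BRQ pool 3 was the highest of the BRQ mice for these 3 genes. Cstdc6, Stfa2l1 and Cstdc4 had log2 fold changes of 3.63, 3.29 and 2.51 in Veh (adjusted p = 0.00188, 0.00179 and 0.0307) and of 3.39, 2.96 and 2.65 in BRQ (adjusted p = 0.000133, 0.000308 and 0.00113). None of the 6 was called between BRQ and Veh, with log2 fold changes from -0.33 to 0.70. The copies are alike in sequence, so reads could be shared among them and the single genes are uncertain. Without Veh pool 1 the calls in Veh of Stfa2 (adjusted p = 0.376) and Cstdc5 (0.545) were lost, that of Cstdc6 was lost without NTB pool 3 (0.06), and with the pool as a block the adjusted p of Cstdc5 in Veh was 0.0551. DESeq2 did not call Stfa2 (0.0917) and Cstdc5 (0.161) in Veh. With mice of at least 30 members, Cstdc6 (0.0879), Cstdc4 and Stfa2l1 were not called in Veh, and with tag ratios Cstdc6 was not called in BRQ (0.173). Among members above the median Retnlg, all 6 missed the threshold in Veh, namely Stfa2 (0.106), Stfa3 (0.0559), Cstdc5 (0.211), Cstdc6 (0.157), Cstdc4 (0.811) and Stfa2l1 (0.187). Between BRQ and Veh, Stfa3 passed higher in BRQ at middle depth (1.64, 0.0133), and at or below the median Retnlg, with 1 Veh mouse, Stfa3 (-5.73, 0.000442) and Cstdc5 (-4.80, 2.6e-08) passed lower.

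Promoter sequence of 4 stefin A genes, which moved together, is shown beside that of Ltf, Camp and Ngp, secondary granule genes that lie near each other on chromosome 9. The 250 bases before each gene's start come from RefSeq (GRCm38.p6), with the start coordinates of that annotation. Capitals mark matches of TTGCNNAA, a C/EBP-type motif, and GAGGAA, the core of PU.1 sites, on either strand.
Stfa2 (chr16:36408364-36408613, minus strand): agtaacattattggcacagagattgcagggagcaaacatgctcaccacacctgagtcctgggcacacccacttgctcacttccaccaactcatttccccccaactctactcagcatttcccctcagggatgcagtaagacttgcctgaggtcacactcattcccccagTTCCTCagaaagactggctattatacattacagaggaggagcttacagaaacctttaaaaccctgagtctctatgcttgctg
Stfa2l1 (chr16:36156561-36156810, plus strand): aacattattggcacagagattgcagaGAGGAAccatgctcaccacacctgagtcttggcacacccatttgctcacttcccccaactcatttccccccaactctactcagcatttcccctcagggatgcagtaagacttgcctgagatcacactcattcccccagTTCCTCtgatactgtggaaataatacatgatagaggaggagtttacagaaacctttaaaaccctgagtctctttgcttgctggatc
Stfa3 (chr16:36455393-36455642, minus strand): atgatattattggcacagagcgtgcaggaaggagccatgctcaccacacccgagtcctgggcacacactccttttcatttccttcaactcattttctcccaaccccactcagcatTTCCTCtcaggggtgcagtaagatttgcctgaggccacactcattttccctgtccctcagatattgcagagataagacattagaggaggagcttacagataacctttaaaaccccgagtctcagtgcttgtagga
Cstdc5 (chr16:36367571-36367820, minus strand): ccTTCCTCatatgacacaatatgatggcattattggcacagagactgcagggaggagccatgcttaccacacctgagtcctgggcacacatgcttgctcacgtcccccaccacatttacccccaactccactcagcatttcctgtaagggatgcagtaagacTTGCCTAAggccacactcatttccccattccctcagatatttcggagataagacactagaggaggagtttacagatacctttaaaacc
Ltf (chr9:111019042-111019291, plus strand): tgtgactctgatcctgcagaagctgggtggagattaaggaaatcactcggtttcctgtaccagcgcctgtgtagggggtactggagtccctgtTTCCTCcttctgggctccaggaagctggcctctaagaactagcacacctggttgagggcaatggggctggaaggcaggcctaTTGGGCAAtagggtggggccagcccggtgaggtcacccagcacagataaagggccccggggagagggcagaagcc
Camp (chr9:109849457-109849706, minus strand): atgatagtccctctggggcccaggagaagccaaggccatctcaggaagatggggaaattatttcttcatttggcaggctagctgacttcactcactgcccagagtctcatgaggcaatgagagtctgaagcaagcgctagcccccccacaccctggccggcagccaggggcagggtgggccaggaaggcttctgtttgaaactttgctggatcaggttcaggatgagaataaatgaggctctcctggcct
Ngp (chr9:110419558-110419807, plus strand): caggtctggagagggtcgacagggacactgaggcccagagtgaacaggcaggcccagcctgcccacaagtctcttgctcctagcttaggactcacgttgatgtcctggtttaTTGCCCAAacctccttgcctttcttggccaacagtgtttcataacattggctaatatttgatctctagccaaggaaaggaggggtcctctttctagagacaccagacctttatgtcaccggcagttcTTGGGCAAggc
In global alignments the 4 stefin A promoters were identical at 77.2% to 90.8% of the 250 bases, with Stfa2 and Stfa2l1 at 90.8%, while Ngp and Stfa2 were identical at 62.4%. All 4 held GAGGAA (2 matches in Stfa2l1), which 23.3% of 32851 promoters hold in the same window, and Cstdc5 also held TTGCNNAA, which 9.56% hold. Ltf held 1 match of each motif, Ngp 2 of TTGCNNAA, and Camp neither in this window. No match overlapped a match of the other motif in these 7 promoters.

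Other late neutrophil genes rose as well. Cxcr2 (ENSMUSG00000026180, chromosome 1, 74153989 to 74161246, plus strand) was at 178, 185 and 151 CPM in NTB, 541 and 582 in Veh and 416, 495 and 531 in BRQ mice, with little spread within groups and none overlapping NTB. Its log2 fold change was 1.74 (SE 0.23, adjusted p = 6.41e-06) in Veh and 1.52 (SE 0.20, adjusted p = 1.59e-06) in BRQ. Asprv1, an aspartic protease of neutrophils and skin, was at 0, 15.9 and 18 CPM in NTB, 151 and 565 in Veh and 169, 95.2 and 159 in BRQ, with 4.11 (SE 0.47, adjusted p = 2.91e-07) and 3.07 (SE 0.42, adjusted p = 4.58e-06). Asprv1 passed lower in BRQ than in Veh without Veh pool 1 (-1.90, adjusted p = 0.00397). Cxcr2 and Asprv1 stayed called in both comparisons without any one mouse, Cxcr2 was lost in Veh above the median Retnlg (0.157), and with tag ratios Cxcr2 was lost in BRQ (0.71, adjusted p = 0.389). Of 30 genes on the late neutrophil list, which holds 4 of the 6 stefin A genes, 24 were tested. In Veh 10 rose and 0 fell (median log2 fold change 0.71, all genes 0.00), and in BRQ 13 rose and 0 fell (median 1.30, all genes -0.01). Between BRQ and Veh 0 of 24 were called (median 0.06).

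Small interferon-induced membrane protein genes on chromosome 7 rose together. Ifitm2 (ENSMUSG00000060591, chromosome 7, 140954837 to 140955987, minus strand) was at 374, 468 and 339 CPM in NTB, 1847 and 1470.2 in Veh and 1029, 1037 and 1220.3 in BRQ mice, with 2.09 (SE 0.21, adjusted p = 2.34e-08) and 1.47 (SE 0.19, adjusted p = 1.1e-06). Both Veh mice of the fit were also above all BRQ mice (Veh pool 2, outside it, was not), at a log2 fold change of -0.61 (SE 0.19, adjusted p = 0.58) for BRQ against Veh, which was not called. Ifitm1, Ifitm3 and Ifitm6 had 2.27, 1.22 and 1.12 in Veh and 1.38, 0.84 and 0.73 in BRQ, all called. With tag ratios Ifitm2 stayed called in BRQ and the other 3 did not. On the interferon-stimulated list, 8 of 35 genes were tested. In Veh 4 rose (Ifitm3, Trim30a, Slfn1 and Slfn4) and in BRQ 3 (Ifitm3, Trim30a and Slfn1), with 0 falling, and 27 list members were not tested. S100a6 was at 2869.9, 3563 and 2339.6 CPM in NTB, 7185 and 6575 in Veh and 9614, 7856 and 9040.0 in BRQ, with 1.24 (SE 0.19, adjusted p = 9.17e-05) and 1.60 (SE 0.18, adjusted p = 1.45e-07).

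**Figure D4:**
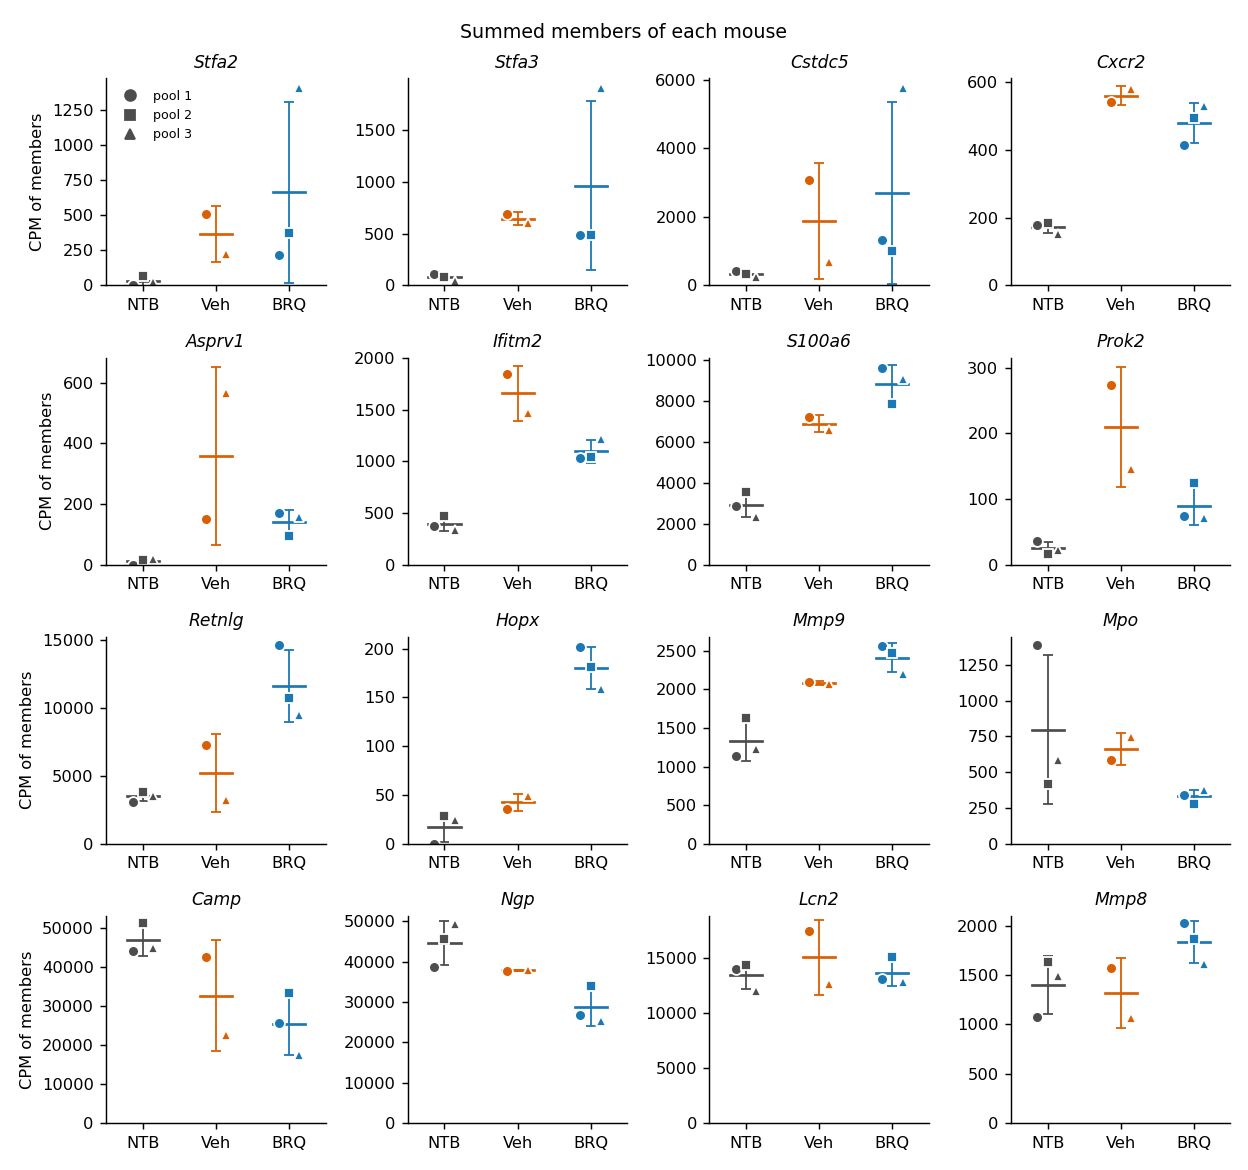
CPM of 16 genes in the summed members of each mouse (vertical axes from 0), with the mean and SD of 3 NTB, 2 Veh and 3 BRQ mice (SD bars are cut at 0). Veh pool 2 was not in the fit and is not drawn. Cxcr2, Ifitm2 and S100a6 lie higher in every tumor-bearing mouse than in every NTB mouse, Retnlg and Hopx lie highest in BRQ, and Lcn2 overlaps between all groups.

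Receptors and survival genes rose in part. On the list of retention, adhesion and migration genes, 7 of 26 tested rose in Veh and 8 of 26 in BRQ, with 0 falling, among them Ccr1, a chemokine receptor (1.39 and 1.40), and Cxcr2. Cxcr4, the receptor that holds neutrophils in the marrow, was at 189 ± 26.6 CPM in NTB (SD, n = 3), 158 ± 41.2 CPM in Veh (n = 2) and 192 ± 35.03 CPM in BRQ (n = 3) and was not called. On the cytokine receptor and JAK-STAT list, 3 of 12 tested rose in Veh and 4 of 12 in BRQ, among them Csf2rb, the shared beta chain of the GM-CSF receptor (1.42 and 0.95), Mcl1, which keeps neutrophils alive (1.07 and 0.93), and Pim1, a STAT-induced kinase (1.47 (SE 0.33, adjusted p = 0.00905) and 1.22 (SE 0.25, adjusted p = 0.00217)). The call of Pim1 in Veh was lost without NTB pool 3 (adjusted p = 0.0691) and without Veh pool 1 (0.175) or 3 (0.0581), with mice of at least 30 members (0.136) and at middle depth (0.0652), and in BRQ without NTB pool 3 (0.0845) and with tag ratios (0.46). Above the median Retnlg it was lost in both (0.438 and 0.477). Csf3r, the G-CSF receptor, had 0.37 (SE 0.26, adjusted p = 0.61) in Veh and 0.14 (SE 0.20, adjusted p = 0.765) in BRQ.

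Secondary granule genes moved in both directions. On that list, 1 of 21 tested rose in Veh (Lrg1) and 0 fell. In BRQ 3 rose (Ceacam10, Hp and Lrg1) and 3 fell (Orm1, Camp and Ngp). Camp (ENSMUSG00000038357, chromosome 9, 109847379 to 109849617, minus strand) was at 44100.3, 51355 and 44945 CPM in NTB, 42628 and 22505 in Veh and 25533, 33393 and 17374 in BRQ mice, a log2 fold change of -0.52 (SE 0.24, adjusted p = 0.337) in Veh and -0.88 (SE 0.21, adjusted p = 0.0103) in BRQ. Ngp (ENSMUSG00000032484, chromosome 9, 110419747 to 110423012, plus strand) was at 38699, 45567 and 49419 CPM in NTB, 37708 and 37886 in Veh and 26653, 33926 and 25347 in BRQ, with -0.24 (SE 0.20, adjusted p = 0.69) and -0.64 (SE 0.18, adjusted p = 0.0282). All BRQ mice lay below all NTB mice for both. The BRQ call of Camp was lost without NTB pool 2 (adjusted p = 0.0632) or BRQ pool 3 (0.103), and Camp in Veh passed without Veh pool 1 (-1.09, 0.0443). That of Ngp was lost without NTB pool 2 (0.0957) or 3 (0.152) and without BRQ pool 1 (0.14) or 3 (0.139). With tag ratios neither Camp (0.107) nor Ngp (0.142) was called in BRQ, nor with all 9 mice (0.0574 and 0.165) or in either part of a split at the median Retnlg. Ngp was also lost without the low-count filter (0.39) and with Ltf of at least 10 (0.0699).

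Other granule and marker genes overlapped or missed the threshold. Lcn2 was at 13438 ± 1272 CPM, 15042 ± 3406 CPM and 13629 ± 1229 CPM in NTB, Veh and BRQ, with log2 fold changes of 0.17 (SE 0.19, adjusted p = 0.815) and 0.02 (SE 0.17, adjusted p = 0.971). Ly6g was at 2380.2 ± 327 CPM, 2446 ± 694 CPM and 2841 ± 239 CPM, Mmp8 at 1396 ± 292 CPM, 1316 ± 353 CPM and 1835 ± 209 CPM, and neither was called. Mmp8 passed lower in Veh than in NTB among members above the median Retnlg (-1.07, adjusted p = 0.0402) and higher in BRQ than in NTB among members of middle depth (0.59, 0.0414). Olfm4 was at 873, 2316 and 1899 CPM in NTB, 981 and 96.9 in Veh and 478, 1537 and 503 in BRQ mice. It varied widely within groups and missed the threshold in Veh (-1.53 (SE 0.43, adjusted p = 0.0545)) and BRQ (-1.08 (SE 0.35, adjusted p = 0.0683)). It passed in Veh without Veh pool 1 (-4.24, adjusted p = 0.000219), NTB pool 1 (0.0489) or any 1 BRQ mouse (0.0141 to 0.0382), and in BRQ without NTB pool 1 (0.0459), BRQ pool 2 (0.00364) or either Veh mouse (0.00367 and 0.0166). It passed in both without the low-count filter (1.57e-08 and 6.71e-05), with Ltf of at least 50 (0.00103 and 0.0313), without doublets (0.0116 and 0.027) and with 500 to 7500 read as UMIs (0.00229 and 0.0155). It also passed in Veh above the median Retnlg (-2.12, 0.0202), and in BRQ at middle depth (-1.83, 1.94e-18) and with mice of at least 30 members (0.00816). Chil3 and Cd177, a surface protein of secondary granules, and the calprotectin genes S100a8 and S100a9 were not called, with log2 fold changes between -0.64 (Chil3 in Veh) and 0.87 (Chil3 in BRQ against Veh). Chil3 alone of these 4 passed under some alternatives, in Veh against NTB with 500 to 7500 read as UMIs (-0.81, adjusted p = 0.0246), in BRQ against Veh without the low-count filter (1.06, 0.0123) and in BRQ against NTB with members of middle depth (-0.61, 0.0281). Itgam and Anxa1 (annexin A1) were not called either, with -0.01 and 0.44 in Veh and 0.09 and 0.32 in BRQ. Fcnb missed the threshold with -1.28 (SE 0.38, adjusted p = 0.0744) in Veh and -0.84 (SE 0.27, adjusted p = 0.069) in BRQ, and passed in Veh without Veh pool 1 (-3.60, adjusted p = 0.0109), without BRQ pool 1 (0.0158), without the low-count filter (0.00213) and with all 9 mice (0.044). In BRQ Fcnb passed without Veh pool 1 (0.0452), Veh pool 3 (0.023) or BRQ pool 2 (0.0308), without the filter (0.0373), with Ltf of at least 10 (0.032), with tag ratios (-1.94, 0.0067) and at middle depth (-1.33, 0.0003).

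Of 11 tested tertiary granule and secretory vesicle genes, 2 rose in Veh (C5ar1 and Lilrb4a) and 5 in BRQ (Mmp9, Adam8, Lilrb4a, Fpr1 and Mmp25), with 0 falling, and BRQ against Veh gave 0 of 11. Mmp9 was at 1141, 1629 and 1225 CPM in NTB, 2099 and 2068 in Veh and 2569, 2474 and 2199.8 in BRQ mice, with 0.63 (SE 0.19, adjusted p = 0.0914) and 0.84 (SE 0.17, adjusted p = 0.00179). The BRQ call of Mmp9 was lost without NTB pool 3 (adjusted p = 0.0631), with tag ratios (0.60, 0.469) and above the median Retnlg (0.09, 0.917). In Veh it passed without NTB pool 2 (0.0458) and with the pool as a block (0.0437).

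Primary granule genes were set beside their level in cells that should lack them. Elane (neutrophil elastase) was at 2442, 283 and 549 CPM in NTB, 368 and 307 in Veh and 210.0, 299.8 and 438 in BRQ mice, and Mpo (myeloperoxidase) at 1390.4, 417 and 586, 584 and 743 and 338, 281 and 372. Of 12 tested primary granule genes 0 were called in Veh and 3 passed lower in BRQ (Elane, Cd63 and Mpo). Elane and Mpo passed there at -1.48 (SE 0.40, adjusted p = 0.0258) and -1.06 (SE 0.26, adjusted p = 0.0116), with NTB pool 1 far above the others. Without it Elane was at -0.46 (adjusted p = 0.354) and Mpo at -0.62 (0.0694). Elane was also lost without BRQ pool 1 (0.0755) or 2 (0.106) and with the pool as a block (0.0954), and Mpo without BRQ pool 2 (0.0818). Both were also lost in DESeq2 (0.453 and 0.273), with tag ratios (-1.10, 0.565 and -0.08, 0.974), with Ltf of at least 10 (-1.18 and -0.76) or 50 (-0.47 and -0.53), with mice of at least 30 members (-0.45 and -0.61), with 500 to 7500 read as UMIs (-0.39 and -0.45), at middle depth (-0.30 and -0.60) and in both parts of the Retnlg split. In Veh against NTB, Elane passed lower without NTB pool 2 (-1.93, 0.0126) and without the low-count filter (-1.36, 0.000186). With 500 to 7500 read as UMIs, Mpo passed higher in Veh against NTB (0.74, 0.0444) and lower in BRQ against Veh (-1.19, 0.003). B-lineage and erythroid singlets of the same mice, which should lack both, had 9.68 to 20.7 Elane UMIs per 10000 in BRQ, against 2.01 to 4.45 in members, and 6.50 to 15.6 Mpo UMIs against 2.51 to 3.78. Members lay at or below this reference in 7 of the 9 mice for both genes, so their levels there are not read as expression. Whether the RNA came from the members themselves was not tested. NTB pool 1 was above it for both (Elane 21.8 against 9.33, Mpo 12.4 against 8.25) and Veh pool 2 for Elane (4.68 against 2.17, from 9 UMIs). Camp was at 5.84 to 26.3 in these cells of NTB mice against 395 to 451 in members. Stfa3 was at 0 to 0.0638 in BRQ against 4.39 to 19.4. Ifitm2 was at 1.51 to 2.50 in NTB against 3.13 to 4.10.

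BRQ was then compared with vehicle in tumor-bearing mice. Hopx, a homeodomain-only protein without DNA binding of its own, was the gene called (ENSMUSG00000059325, chromosome 5, 77086988 to 77115121, minus strand). It was at 36.1 and 48.5 CPM in the Veh mice, 202, 181 and 159 in the BRQ mice and 0, 28.6 and 24 in the NTB mice, a log2 fold change of 2.17 (SE 0.43, adjusted p = 0.0363) for BRQ against Veh and 2.89 (SE 0.28, adjusted p = 1.96e-08) for BRQ against NTB. The call against Veh was lost with mice of at least 30 members (0.144), with Ltf of at least 10 (0.0548), with tag ratios (0.679) and at middle depth (0.0979). It was also lost with the pool as a block (adjusted p = 0.166), in DESeq2 (0.999), without NTB pool 2 (0.0806) or 3 (0.0652), Veh pool 1 (0.438) or 3 (0.072) and BRQ pool 1 (0.154) or 2 (0.102). The call against NTB held without any one mouse (log2 fold change 2.79 to 3.02). The left-out Veh mouse of pool 2 had 5 Hopx UMIs in its 19213, or 2.60 per 10000, above the 1.61 to 1.94 of the BRQ mice, and with all 9 mice the adjusted p of Hopx for BRQ against Veh was 0.423.

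Retnlg (ENSMUSG00000022651, chromosome 16, 48872621 to 48874496, plus strand) was at 3084, 3821 and 3523 CPM in NTB, 7243 and 3183 in Veh and 14588, 10715 and 9467 in BRQ mice. It rose in BRQ against NTB (1.73 (SE 0.21, adjusted p = 8.2e-07)), also without any one mouse, though not with tag ratios (1.25, adjusted p = 0.145), and missed the threshold in Veh (0.59 (SE 0.23, adjusted p = 0.208)). For BRQ against Veh it missed the threshold (1.14 (SE 0.24, adjusted p = 0.0543)), although every BRQ mouse of the fit lay above both Veh mice. This value moved with the mice and the settings, since it was 1.96 (adjusted p = 3.61e-05) without Veh pool 1, 1.27 (0.015) without BRQ pool 3, 0.70 (0.639) without Veh pool 3 and 0.30 (0.898) with the third Veh mouse added. It passed without the low-count filter (1.32, adjusted p = 9.12e-05), with Ltf of at least 50 (1.29, adjusted p = 0.000308), without doublets (1.21, adjusted p = 0.0117) and with 500 to 7500 read as UMIs (1.21, adjusted p = 0.0092), and was lower with tag ratios (0.46, adjusted p = 0.92) and at middle depth (0.41, adjusted p = 0.908). In Veh against NTB, Retnlg passed without Veh pool 3 (1.08, 0.00168), with all 9 mice (1.43, 0.0167), with mice of at least 30 members (0.99, 0.0261) and at middle depth (1.78, 3.8e-08).

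**Figure D5:**
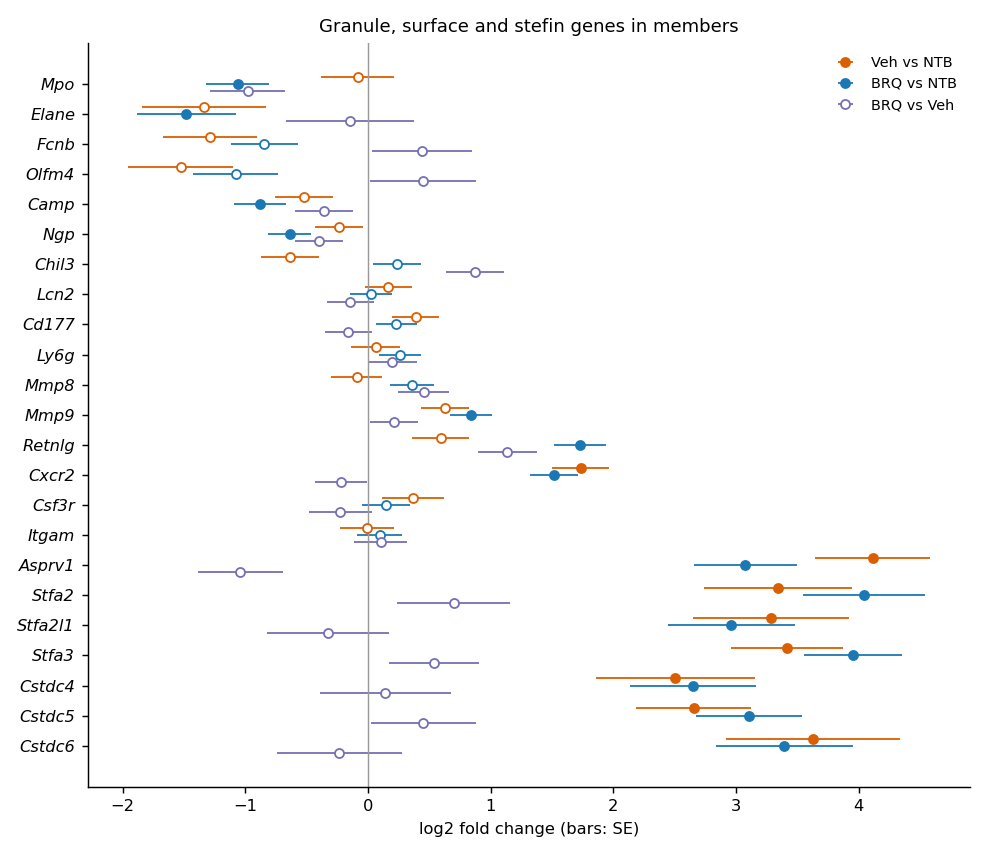
Log2 fold changes (points) with their SE (bars) for 23 granule, surface and stefin genes in members, for Veh against NTB, BRQ against NTB and BRQ against Veh. Filled points passed the adjusted p of 0.05. The 6 stefin A genes, Asprv1 and Cxcr2 lie right of 0 and are filled in both contrasts with NTB, and no point of BRQ against Veh is filled.

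Other genes named by the size of their change followed. In Veh against NTB, Fam20c (a Golgi kinase, 4.59 (SE 1.08, adjusted p = 0.0132)) and Lipg (endothelial lipase, 3.45 (SE 0.59, adjusted p = 0.000294)) rose, while Dek, a chromatin protein (-1.64 (SE 0.46, adjusted p = 0.0493)), mt-Nd5, a mitochondrial complex I subunit (-1.55 (SE 0.41, adjusted p = 0.0379)), Igf1r, the IGF-1 receptor (-1.28 (SE 0.31, adjusted p = 0.0203)), and Irf2bp2, a transcriptional corepressor (-1.24 (SE 0.28, adjusted p = 0.00905)), fell. Thbs1 (thrombospondin 1) was at 71.3, 63.6 and 89.98 CPM in NTB, 24.7, 4.76 and 0 in BRQ and 0 UMIs in both Veh mice of the fit, against 84 UMIs over the NTB mice, so it was at least 5.64-fold lower in Veh (3 UMIs over the group taken as the limit). Veh pool 2, outside the fit, had 1 UMI. Lipg stayed called without any one mouse, and passed lower in BRQ than in Veh without BRQ pool 3 (-2.56, adjusted p = 0.0423). Without Veh pool 1 the adjusted p was 0.191 for Fam20c, 0.21 for Dek, 0.436 for mt-Nd5, 0.175 for Igf1r, 0.418 for Irf2bp2 and 0.274 for Thbs1. Without Veh pool 3 it was 0.0737 for Fam20c, 0.297 for Dek, 0.0961 for mt-Nd5 and 0.167 for Igf1r. NTB pool 3 decided Dek (0.296), Igf1r (0.166), Irf2bp2 (0.0646) and Thbs1 (0.171), and NTB pool 1 decided Dek (0.0722) and mt-Nd5 (0.0643). Dek was also lost without BRQ pool 2 (0.0615) or 3 (0.0531) and mt-Nd5 without BRQ pool 2 (0.054). With the pool as a block the adjusted p was 0.0551 for Fam20c, 0.154 for Dek and 0.112 for mt-Nd5. DESeq2 did not call Igf1r (0.0882), Irf2bp2 (0.065) and mt-Nd5 (0.0812). These 3 and Dek were also lost with tag ratios (0.295, 0.091, 0.295 and 0.445), with Ltf of at least 10 (0.128, 0.105, 0.183 and 0.0891) and at middle depth (0.118, 0.154, 0.81 and 0.727). Dek was lost with RLE size factors (0.0564), without the low-count filter (0.0543) and with Ltf of at least 50 (0.127), and Dek and mt-Nd5 with 500 to 7500 read as UMIs (0.218 and 0.11). With all 9 mice mt-Nd5 was lost (0.387). With mice of at least 30 members, Fam20c (0.114), Dek (0.304), mt-Nd5 (0.16), Igf1r (0.187) and Thbs1 (0.0767) were lost, and Lipg was lost at middle depth (0.192). In the parts of the Retnlg split, Igf1r, Irf2bp2 and mt-Nd5 were lost in both and Dek at or below the median.

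In BRQ against NTB, Thbs1 (-2.79 (SE 0.54, adjusted p = 0.00103)), Tiam1, an activator of small GTPases (-1.62 (SE 0.38, adjusted p = 0.00826)), Tomm70a, a mitochondrial import receptor (-1.42 (SE 0.40, adjusted p = 0.035)), Zranb2, a splicing factor (-1.41 (SE 0.40, adjusted p = 0.0339)), and Smim11, a small membrane protein (-1.34 (SE 0.39, adjusted p = 0.0409)), fell most. Thbs1 (adjusted p = 0.167) and Tiam1 (0.132) were lost without NTB pool 3. Tomm70a was lost without NTB pool 2 (0.138) or 3 (0.236) or any BRQ mouse (0.0744 to 0.147), Zranb2 without any BRQ mouse (0.0729 to 0.108) and Smim11 without any NTB or BRQ mouse (0.055 to 0.312). With the pool as a block the adjusted p was 0.0935 for Tomm70a, 0.0603 for Zranb2 and 0.111 for Smim11. With tag ratios all 5 calls were lost (0.0539 for Thbs1, 0.67 for Tiam1, 0.469 for Tomm70a, 0.528 for Zranb2 and 0.626 for Smim11), and Tiam1, Tomm70a and Smim11 were also lost with Ltf of at least 50 (0.0634, 0.0641 and 0.109). With Ltf of at least 10, Tomm70a (0.059), Zranb2 (0.129) and Smim11 (0.105) were lost, as were Tomm70a and Smim11 with all 9 mice (0.0555 and 0.0596) and without the low-count filter (0.0883 and 0.0833). Tomm70a was lost with 500 to 7500 read as UMIs (0.0566), and Zranb2 at middle depth (0.0656) and with mice of at least 30 members (0.0611).

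Lists tied to the study's questions are set beside all tested genes, of which 2.07% were called in Veh and 4.54% in BRQ against NTB, and 0.0357% in BRQ against Veh. Of 13 tested genes of the unfolded protein response and ER chaperone list, 0 were called in any comparison (median log2 fold change 0.03 in Veh and -0.35 in BRQ against NTB, -0.56 in BRQ against Veh, all genes 0.00, -0.01 and 0.00). By sign alone, 8 of the 13 were higher in Veh than in NTB, 1 was higher in BRQ than in NTB and 2 were higher in BRQ than in Veh. Hspa5 (BiP) was at 97.3 ± 9.01 CPM, 63.05 ± 43.5 CPM and 73.7 ± 18.8 CPM in NTB, Veh and BRQ (SD, 3, 2 and 3 mice), and Xbp1, a transcription factor of that response, at 72.7 ± 17.6 CPM, 77.3 ± 27.7 CPM and 66.2 ± 12.7 CPM. Of 5 tested genes of pyrimidine metabolism, 1 rose in Veh and in BRQ, Upp1, a uridine phosphorylase that degrades uridine (2.63 and 2.08). Dhodh, the target of BRQ, had 4 UMIs over the 3 NTB mice and 0 in the Veh and BRQ mice, under the limit for a comparison. Of the list linked to MDSCs, 1 of 14 tested rose in Veh (Ifitm1, whose levels overlapped those of B-lineage and erythroid cells) and 3 in BRQ (Clec4e, Ifitm1 and Ctsd), with Olr1 falling in BRQ. Cd274 (PD-L1) had 0 UMIs in every mouse, which in the BRQ mice allows up to 3 UMIs in 667915. Cd84, a surface receptor used to mark MDSCs, was at 88.1 ± 32.4 CPM, 77.3 ± 27.7 CPM and 105 ± 27.1 CPM in NTB, Veh and BRQ (SD, 3, 2 and 3 mice) and was not called. Jaml, also used as such a marker, had 4, 2 and 5 UMIs in NTB, Veh and BRQ mice, Gfi1, a transcriptional repressor active in the granulocyte lineage, 55, 6 and 18, Dnajb11, an ER co-chaperone, 47, 8 and 13, and Socs3, a brake on cytokine signals, 2, 2 and 6.

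Housekeeping and early lists are set beside all tested genes, of which 1.71% were called higher and 0.357% lower in Veh, and 3.47% and 1.07% in BRQ against NTB. Of 80 ribosomal protein genes 2 fell in Veh (Rpl35 and Rps3, list median -0.51, all genes -0.005) and 2 in BRQ (Rps15 and Rpl35a, list median -0.20, all genes -0.013). In BRQ against Veh 0 were called (list median 0.26, all genes 4.4e-05). By sign alone, 3 of the 80 were higher in Veh than in NTB, 6 in BRQ than in NTB and 74 in BRQ than in Veh. Of 57 respiratory chain genes, 5 S phase and 8 G2M genes 0 were called in any comparison. On the glycolysis list 1 of 14 rose in Veh and in BRQ (Gapdh). Of 15 tested transcription factors 1 rose in Veh (Mxd1) and 2 in BRQ (Lmo4 and Mxd1). Cebpe, Cebpd and Cebpb, factors of granulocyte development, were not called, though Cebpb passed in Veh against NTB at middle depth (1.83, adjusted p = 0.0288, against 0.94). Of the early granulocyte list 0 of 15 were called in Veh and 2 passed lower in BRQ (Elane and Mpo, whose levels were at or below those of the reference cells in 7 of 9 mice and whose calls were lost without NTB pool 1), with list medians of -0.56 and -0.25 (1 and 0 of 15 positive).

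In fits chosen after the data were seen, members were split at the median Retnlg level and the groups compared within each part. Above it 10, 11 and 1 genes of 2116 were called in Veh against NTB, BRQ against NTB and BRQ against Veh, over 2 NTB, 2 Veh and 3 BRQ mice with at least 10 such members. At or below it 3, 0 and 2 of 1150 were called over 3 NTB, 1 Veh and 2 BRQ mice, where the lone Veh mouse was taken to vary like the rest. Above the median, Stfa3 was at 2.79 in BRQ against NTB (adjusted p = 0.000219), Stfa2 at 2.82 (0.00403), Ifitm2 at 1.26 (0.00403) and Hopx at 1.81 (0.0031). Cstdc5 (2.31, 0.0132) and Cstdc6 (2.32, 0.0367) also passed there. The BRQ calls of Cstdc4 (1.30, 0.327), Stfa2l1 (1.90, 0.153), Ifitm1 (0.32, 0.853), Ifitm3 (0.66, 0.187) and Ifitm6 (0.75, 0.0992) were lost. Cxcr2 was at 0.66 (0.308) in BRQ against NTB, where it was 1.52 over all members, S100a6 at 0.84 (0.0628) against 1.60, and Camp at -0.40 (0.568) against -0.88. In Veh against NTB the call of S100a6 was lost above the median (0.41, 0.548, against 1.24 over all members). Retnlg itself had log2 fold changes of 0.96 (Veh against NTB), 0.14 (BRQ against Veh) and 1.10 (BRQ against NTB) at or below the median and of -0.51, 0.99 and 0.48 above it, none called, so the groups were not matched on Retnlg within the parts. These fits hold fewer cells, mice and genes than the full one, and the part of the Retnlg range in the group differences was not tested.

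Markers of other cells differed in level. B-lineage markers stood at 0 to 0.159 UMIs per 10000 over the 9 mice, with at most 4 of 8 genes seen in a mouse. Erythroid markers (up to 8 of 10 genes seen) stood at 0 to 0.554 in 8 mice and at 11.02 in BRQ pool 1, and their part in the results of that mouse was not tested. Monocyte markers stood at 3.83 to 5.22 in NTB, 3.10 to 3.35 in Veh and 5.11 to 6.90 in BRQ mice, and markers of granulocyte-monocyte progenitors at 12.3 to 56.0, 14.8 to 17.8 and 10.3 to 19.7, with the highest value in NTB pool 1. Over all members, monocyte markers stood at 5.16, 5.03 and 5.15 in pools 1, 2 and 3, against 4.74, 5.17 and 4.98 in all other cells. In members this was nearly all Ly6c2 (4.82 per 10000, in 75.3% of cells), which granulocytes also express, while Csf1r (0.0545), F13a1 (0.0818), Ccr2 (0.0289) and Ms4a6c (0.0353) were near 0, and 1 or 2 of the 7 genes were seen in each Veh mouse. Eosinophil markers stood at 0.538, 0.654 and 0.527 against 0.232, 0.321 and 0.422, mostly Ear2 (0.423) and Prg2 (0.132), with Epx (0.0112), Prg3 (0.00321) and Ear1 (0.00481) near 0 and Il5ra at 0. The T and NK markers stood at 2.45, 2.51 and 1.86 against 0.181, 0.187 and 0.148, nearly all of it from Cd3d, a T cell receptor chain seen in 51.4% of members (2.27 per 10000), while Cd3e was at 0 and Cd3g in 0.589% of members. By mouse, the T and NK markers stood at 1.55 to 2.49 in NTB, 1.37 to 2.60 in Veh and 2.61 to 3.41 in BRQ. The part of these markers in the results was not tested. The mice of a pool shared 1 library, and p-values measure the spread between mice of this series. In sums of cells, less RNA per cell of one kind and fewer cells of that kind cannot be told apart.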

How the data were processed

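Per the labels and the study's methods, c-Kit-enriched marrow of 9 mice was stained with hashtag antibodies, mixed into 3 pools of 3 mice and run on the 10x platform, with a gene and a hashtag library per pool (6 labelled samples). The authors deposited raw UMI counts per gene and hashtag for each barcode, made with Cell Ranger 6.0.0 on build mm10 (submitters' processing notes). Their later hashtag calls, filters and normalization were not in the matrices, which held 13750, 11441 and 14297 barcodes with 128035770, 100700982 and 135564079 gene UMIs. Mice were assigned anew with HTODemux (Seurat 5.3.0, quantile 0.99), and Scrublet (scanpy 1.11.5) marked doublets, which were kept.

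Members and gene lists were chosen with earlier results of these data known. Counts were summed over the members of each mouse with at least 10 members and tested with edgeR 4.0.16 (TMM, filterByExpr, quasi-likelihood, 3 groups in 1 fit, Benjamini-Hochberg adjusted p under 0.05). Shares were compared with two-sided exact permutation tests. Named genes were a fixed set of stage and function genes (some are not reported here) plus, per comparison, the 5 highest and 5 lowest log2 fold changes among called genes with a mean of at least 20 CPM and no overlap between the groups. The other genes named came from the lists or were chosen after their values were seen. Gene positions came from the GRCm38 annotation, in which 32158 of 32285 gene IDs were found. Of the listed symbols, 4 were absent from the table, of which Gm5483 was matched to Cstdc4. On simulated sums of 3387 genes with 4-fold changes, 91% of 200 changed genes were called in BRQ against Veh and 99.5% in BRQ against NTB. The changed genes were drawn from those with a mean over 20 UMIs, with 1 fixed dispersion of 0.05 and no effect of single mice or pools. These shares therefore do not cover genes with fewer UMIs or a spread like that between the real mice. Mice of a pool shared a library, which the labels give as the pairing. The median correlation of their deviations from group means was 0.0437 in the same pool and -0.0331 across pools. Alternatives were DESeq2 1.42.0, RLE size factors, no filter, the pool as a block, each mouse left out, other member minima, Ltf limits of 10 and 50, tag ratios, removal of doublets, 500 to 7500 read as UMIs and members of middle depth.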

Additional observations from a re-analysis of the deposited data

How the results depend on the processing

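The limits lie in few mice, shallow cells and the hashtag calls. With 500 to 7500 read as UMIs, the share of members among singlets differed by -9.16 points in Veh minus NTB, 2.62 in BRQ minus Veh and -6.54 in BRQ minus NTB, and the share among Ltf-high cells by 22.2 (Veh minus NTB) and 20.1 (BRQ minus NTB). With tag ratios, BRQ minus Veh was -0.483 for the first share and -13.3 for the second, BRQ minus NTB was 3.10 for the second, and median UMIs per member differed by 309 (BRQ minus Veh) and 310.2 (BRQ minus NTB). Without thinning, the second share differed by 5.95 in Veh minus NTB and 1.87 in BRQ minus Veh, and with Ltf of at least 10 the median UMIs differed by 789.5 in BRQ minus NTB. Within pools as a replicate block, the differences of the first share were -4.48, 0.661 and -3.82.

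In Veh against NTB, 26 genes were called by DESeq2, 31 with mice of at least 30 members and 27 with members of middle depth (1 Veh mouse each), 38 with Ltf of at least 10, and, in splits chosen after seeing the data, 3 at or below and 10 above the median Retnlg. In BRQ against Veh, 0 were called by DESeq2, with the pool as a block, with at least 30 members, with all 9 mice, with Ltf of at least 10 and with tag ratios. There were 6 without the low-count filter, 2 with Ltf of at least 50, 2 without doublets, 5 with 500 to 7500 read as UMIs, 3 with middle depth and 2 at or below the median Retnlg. In BRQ against NTB, 37 were called by DESeq2, 12 with tag ratios, 88 with the pool as a block, and 0 and 11 at or below and above the median Retnlg.

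Leaving out each mouse in turn gave -6.08 to -3.49, 0.534 to 0.890 and -5.42 to -2.83 points for the first share in Veh minus NTB, BRQ minus Veh and BRQ minus NTB. For the second it gave 9.55 to 18.2, -5.64 to -0.968 and 6.53 to 15.1 points. For median UMIs it gave -418.75 to 286.25, 725.4 to 1430.4 and 895 to 1119. For called genes it gave 18 to 70, 0 to 4 and 31 to 153. Veh pool 2 is in none of these gene fits.

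Mpo in Veh against NTB turned to 0.74 with 500 to 7500 read as UMIs, and Chil3 in BRQ against NTB to -0.61 with members of middle depth. At or below the median Retnlg, Cstdc5 turned to -4.80 and Stfa3 to -5.73 in BRQ against Veh, and Cstdc5 turned to -0.81 and Mmp9 to -0.48 in BRQ against NTB. The cause was not tested. Among the other values of single genes and lists, 3800 were marked as the same, 177 lost and 60 gained the threshold, and 26 moved. A gene not called in either fit was marked as the same whatever its sign. Lists were marked by how far their median moved, not by its sign, so the 3800 do not count kept directions. With the pool as a block 57 genes were called in Veh against NTB, 42 of them among the 58 called without it, and 85 of the 88 in BRQ against NTB were among the 127. Genes named only as list members have no block value given.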
